A study of Oryctolagus cuniculus with 34 samples.

Results

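The genes described here build and maintain the muscle side of the neuromuscular junction, the synapse at which a motor nerve excites a muscle fibre. They were chosen by symbol, with no threshold on their values: CHRNA1, CHRNB1, CHRND, CHRNE and CHRNG encode the subunits of the muscle acetylcholine receptor, MUSK, RAPSN and DOK7 its clustering machinery, and COLQ and ACHE the acetylcholinesterase of the synaptic cleft. Of these 10 genes, 8 were present among the 18176 genes of the deposited count files. DOK7 and ACHE were not found under those names and were not analysed here.

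The samples were bulk RNA of the supraspinatus of rabbits, a shoulder muscle of the rotator cuff, with 1 sequencing library per muscle sample. In the long term 5 libraries came from muscles repaired and given a gel of extracellular matrix derived from tissue (gel), 5 from muscles repaired without it (repair) and 10 from uninjured muscles. In the short term 5 libraries came from gel muscles, 5 from repair muscles and 4 from muscles with the injury only. There was no uninjured group in the short term and no injury-only group in the long term, and the labels used here give no days, strain, sex or age. Nor do they say whether each library of a group is from its own animal, although no animal code in the names of the files recurs within a group. If they are not, p-values measure only the spread between these samples, which may be technical. In the long term the animal code of each operated muscle recurs in the uninjured group, and the main tests treated such muscles as independent.

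The acetylcholine receptor of muscle is a ring of subunits that holds alpha (CHRNA1), beta (CHRNB1), delta (CHRND) and either gamma (CHRNG) or epsilon (CHRNE). The fetal form carries gamma and the adult form carries epsilon, and in rodents the switch takes place around birth. In innervated adult fibres the receptor genes are transcribed mainly by the nuclei beneath the nerve terminal. In rodents, denervation is known to raise CHRNA1, CHRND, CHRNG and MUSK transcripts along the whole fibre. MuSK is the receptor tyrosine kinase that organizes the postsynaptic membrane, rapsyn (RAPSN) anchors the receptor to the cytoskeleton, and the collagen tail ColQ (COLQ) ties acetylcholinesterase to the basal lamina.

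Values below are CPM, each gene's count scaled to the total count of its library. Library totals were 12582302 to 15019158 counts in the long term and 26904529 to 32313295 in the short term, so that the terms differed in depth with no overlap. Differences are fitted log2 differences after TMM scaling, with their standard errors (SE), and adjusted p-values are Benjamini-Hochberg values from edgeR's quasi-likelihood test over all genes tested, 2-sided, with a threshold of 0.05. Genes for contractile proteins of the muscle fibre, such as ACTA1 and CKM, were present in every library, with a summed level of 52110 to 211500 CPM over the 7 in the files. CHAT and SLC5A7, which mark the motor nerve terminal and whose mRNA lies mainly in the distant motor neuron, were listed at 0 in all 34 libraries. In bulk RNA, fewer fibres that transcribe a gene and less transcript per fibre cannot be told apart.

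The gel long-term, repair long-term and uninjured groups overlapped in each of these genes. The short-term libraries were spread more widely in the 5 subunit genes and in MUSK. The long-term libraries were not tight either, with CHRND at 1.09 CPM in the lowest uninjured library and 40.5 CPM in the highest gel library. In the short term 3 libraries stood apart from the rest of their groups. Gel library 3 had the highest CHRNG and CHRND levels of all 34 libraries. Repair library 4 was low in all 5 subunit genes, within the range of the 20 long-term libraries for each of them. Injury library 3 was high in the same genes, with CHRNA1, CHRND and CHRNG within the range of the gel group. In the long term gel library 1 had more CHRND, CHRNG and CHRNA1 than any other long-term library. It also had the lowest TMM factor (0.725) and the fewest genes with a count (13603) of all 34 libraries. Its muscle fibre sum of 207000 CPM was the highest of the long term. Their part in its values was not tested. Repair library 4 and injury library 3 thus lay within the range of the other group's remaining libraries in CHRNA1, CHRND and CHRNG. Whether their labels were exchanged cannot be checked from the labels, both were kept as labelled, and the short-term values of repair and injury muscles are given under that limit.

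**Figure D1:**
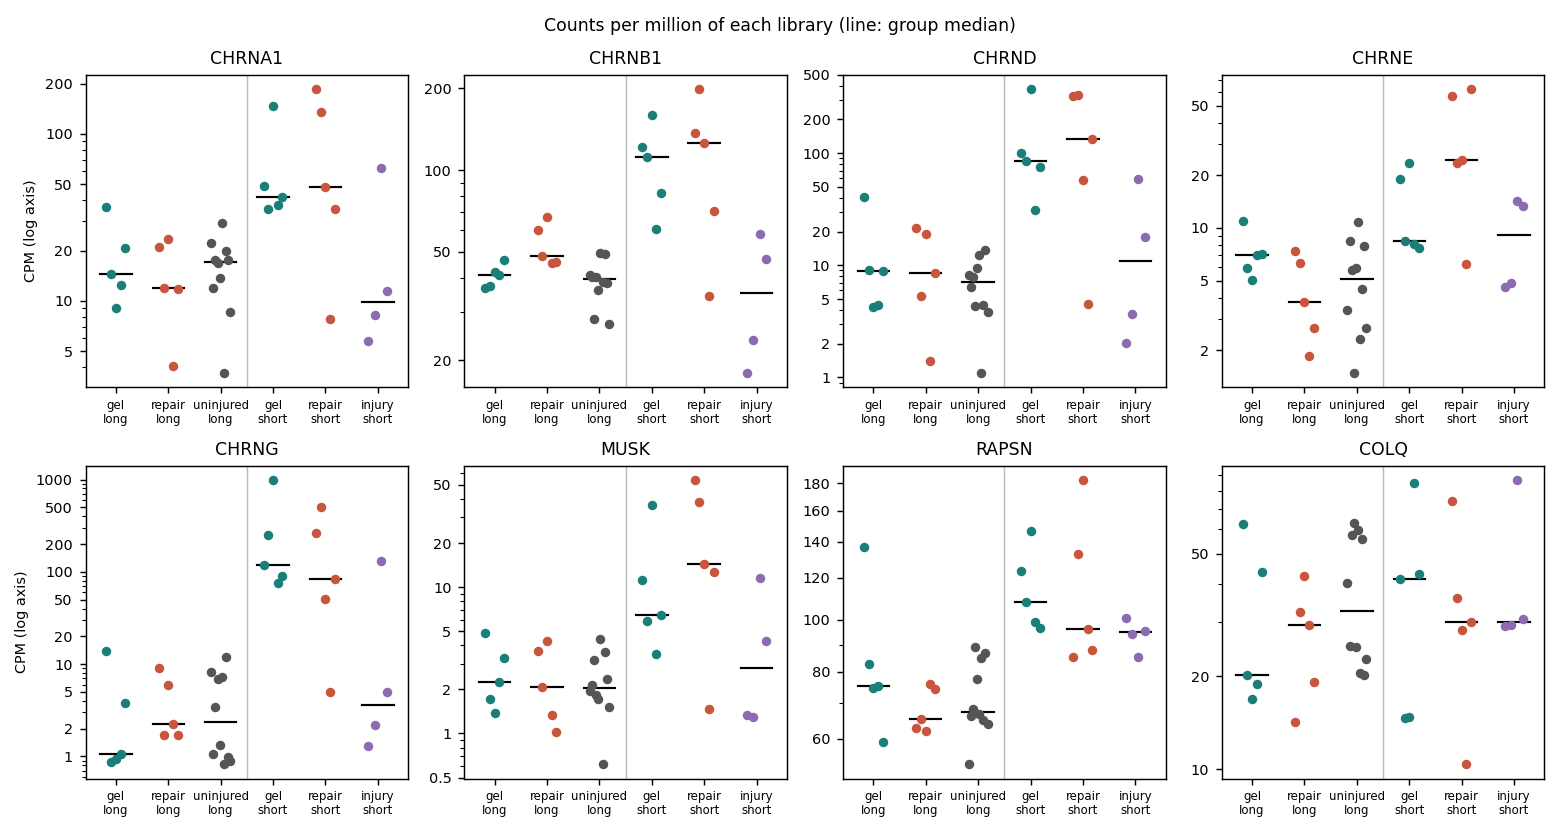
CPM (log axis) of the 8 genes in the 34 libraries, by group, with 1 point per library and a line at each group's median. CHRNG lies between 76.5 and 987 CPM in the gel short-term libraries and between 0.866 and 13.95 CPM in the gel long-term libraries, whereas COLQ overlaps between all groups.

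Over all genes tested, 27.9% were called lower and 18.2% higher in repair muscles of the long term than of the short term. Of the 8 genes, 6 were called lower (CHRNA1, CHRNB1, CHRND, CHRNE, CHRNG and MUSK) and 0 higher. For gel muscles of the long against the short term, 26.5% of all genes were called lower and 21.8% higher, and of the 8 genes 4 were called lower (CHRNB1, CHRND, CHRNG and MUSK) and 0 higher. The median difference of the 8 genes was -2.30 after repair, against -0.11 over all genes, and -1.15 with the gel, against -0.09 over all genes. Term, sequencing depth and anything else that differed between the terms cannot be told apart.

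The alpha subunit gene CHRNA1 was lower in the long than in the short term after repair. Its levels were 20.9, 11.96, 23.5, 4.08 and 11.8 CPM in the repair long-term libraries 1 to 5, against 186, 136, 48.0, 7.78 and 35.3 CPM in the repair short-term libraries. The short-term library 4 alone fell within the long-term range. The fitted difference was -2.05 (SE 0.571, adjusted p = 0.00428). With the gel, CHRNA1 was at 36.5, 14.4, 9.00, 12.4 and 20.8 CPM in the long term, against 48.9, 35.6, 147, 37.7 and 41.9 CPM in the short term. These groups overlapped only through gel long-term library 1, and the difference of -1.27 (SE 0.557) did not pass the threshold (adjusted p = 0.0591). It was -0.79 without gel short-term library 3 and -1.77, past the threshold, without gel long-term library 1. Uninjured muscles had 3.69 to 29.4 CPM with a median of 17.2, a range that covered 4 of 5 gel long-term and 5 of 5 repair long-term libraries.

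The delta subunit gene CHRND fell further. After repair it was at 21.3, 5.37, 18.9, 1.41 and 8.46 CPM in the long term, against 324, 330, 57.9, 4.56 and 133 CPM in the short term (difference -3.50, SE 0.862, adjusted p = 0.00159). Only short-term library 4 lay inside the long-term range. With the gel, CHRND was at 40.5, 9.06, 4.21, 4.44 and 8.89 CPM in the long term, against 100, 85.5, 376, 31.0 and 75.7 CPM in the short term (difference -2.75, SE 0.834, adjusted p = 0.00753). Long-term library 1 lay above short-term library 4, and all other long-term libraries lay below every short-term library. Without gel long-term library 1 the difference was -3.93, and without gel short-term library 3 it was -2.04. Uninjured muscles had 1.09 to 13.7 CPM (median 7.10).

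The beta subunit gene CHRNB1 changed least among the subunit genes called lower. With the gel it averaged 40.8 ± 3.96 CPM in the long term and 107 ± 37.7 CPM in the short term (SD, n = 5 each). Its values were 36.8, 37.4, 42.2, 41.1 and 46.5 CPM in the long term, against 122, 112, 159, 60.7 and 82.7 CPM in the short term. The groups did not overlap, which was so, in this direction, for 25.1% of all genes tested. The difference was -1.04 (SE 0.241, adjusted p = 0.000832). After repair CHRNB1 was at 59.98, 48.1, 67.1, 45.6 and 45.8 CPM in the long term, against 137, 199, 126, 34.3 and 70.7 CPM in the short term. That difference, -0.69 (SE 0.240, adjusted p = 0.0194), was lost without repair short-term library 2 (-0.42, adjusted p = 0.135). It was also not called when only the 2 groups were fitted (adjusted p = 0.0831).

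The gamma subunit gene CHRNG, the fetal form, showed the largest fitted difference of the 8 genes in both comparisons. With the gel it was at 13.95, 0.866, 0.944, 1.06 and 3.78 CPM in the long term, against 119, 249, 987, 76.5 and 89.0 CPM in the short term. Every long-term library lay below every short-term library, as was so for 25.1% of all genes tested and for 2 of the 8 genes, CHRNB1 and CHRNG. The difference of -5.64 (SE 1.19, adjusted p = 0.000305) is a 49.8-fold lower level in the long term. It was -7.14 without gel long-term library 1 and -4.66 without gel short-term library 3.

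After repair CHRNG was at 9.16, 1.69, 5.90, 2.22 and 1.72 CPM in the long term, against 263, 508, 50.3, 4.95 and 84.4 CPM in the short term. Short-term library 4 lay inside the long-term range, and the other 4 short-term libraries lay above it. The difference was -5.03 (SE 1.16, adjusted p = 0.000848), a 32.6-fold lower level, and -4.14 without repair short-term library 2. Uninjured muscles had 0.821 to 11.8 CPM (median 2.38). The lowest level corresponded to 12 counts, so that the lowest CHRNG levels of the long term are the least precise. In a RefSeq table of another rabbit assembly CHRNG and CHRND adjoin each other and overlap the entry of ECEL1, and CHRNE overlaps the entries of C17H17orf107 and MINK1. Whether counting used the strand is not given in the sources used here, and reads that these genes share cannot be told apart.

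The epsilon subunit gene CHRNE, the adult form, was lower in the long than in the short term after repair. It was at 7.36, 6.29, 3.79, 1.85 and 2.66 CPM in the long term, against 56.5, 23.5, 24.4, 6.19 and 62.5 CPM in the short term (difference -2.54, SE 0.482, adjusted p = 0.000112). Only short-term library 4 overlapped with the long-term group. With the gel, CHRNE was at 10.9, 5.93, 5.01, 6.98 and 7.08 CPM in the long term, against 19.0, 8.40, 23.5, 8.07 and 7.67 CPM in the short term. The long-term library 1 lay above 3 of the short-term libraries, and the difference of -0.45 (SE 0.456) did not pass the threshold (adjusted p = 0.422). It was -0.23 without gel short-term library 3 and -0.72 without gel long-term library 1. A test of whether the 2 term differences themselves differed gave 2.09 for CHRNE (SE 0.653, unadjusted p = 0.00311), which did not pass after adjustment over all genes (adjusted p = 0.216). None of the 8 genes passed that test, and 0.0155% of all genes did. At an unadjusted p under 0.05 the count was 1 of 8, CHRNE, against 12.7% of all genes, and neither DESeq2 nor limma voom (with sample quality weights) called any of the 8.

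The balance of CHRNG to CHRNE counts within a library does not depend on library scaling. Gene lengths were not available, so the log2 ratio can be compared between libraries but its sign does not say which subunit was more abundant. The gel short-term libraries had ratios of 2.64, 4.89, 5.40, 3.25 and 3.54, the repair short-term libraries 2.22, 4.43, 1.05, -0.32 and 0.43, and the injury libraries -1.83, -1.15, 3.20 and -1.41. All 5 gel libraries lay above 4 of 5 repair libraries and 3 of 4 injury libraries. In the long term the ratio was 0.35, -2.78, -2.41, -2.72 and -0.91 with the gel and 0.32, -1.90, 0.64, 0.26 and -0.63 after repair, with -2.99 to 2.24 (median -1.12) in uninjured muscles. Every gel long-term library lay below every gel short-term library. After repair the long-term and short-term ranges overlapped.

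**Figure D2:**
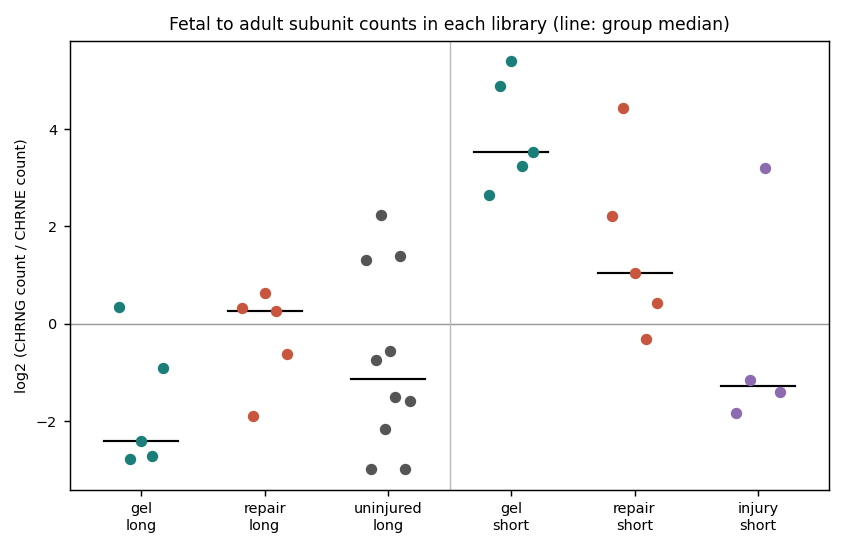
Log2 ratio of CHRNG to CHRNE counts in each of the 34 libraries by group, with 1 point per library and a line at each group's median. The median is 3.54 in gel short-term and 1.05 in repair short-term libraries, and -2.41, 0.26 and -1.12 in gel long-term, repair long-term and uninjured libraries.

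The MuSK kinase gene MUSK followed the receptor genes. After repair it was at 3.68, 2.07, 4.32, 1.33 and 1.02 CPM in the long term, against 54.0, 38.0, 14.4, 1.46 and 12.7 CPM in the short term (difference -2.82, SE 0.621, adjusted p = 0.000558). Short-term library 4 was again the only library of its group within the long-term range. With the gel MUSK was at 4.85, 1.73, 1.38, 2.26 and 3.31 CPM in the long term, against 11.3, 5.85, 36.6, 3.48 and 6.46 CPM in the short term (difference -1.75, SE 0.602, adjusted p = 0.0172). The groups overlapped through gel long-term library 1 alone. This call was lost without gel short-term library 3, where the difference was -0.98 (adjusted p = 0.167). Uninjured muscles had 0.615 to 4.39 CPM (median 2.05).

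RAPSN, which encodes the receptor's anchoring protein, was not called in either comparison between terms. It was at 63.0, 65.2, 62.1, 76.0 and 74.5 CPM in repair muscles of the long term, against 85.4, 133, 182, 96.3 and 87.8 CPM in the short term. The CPM of these groups did not overlap, which was so, in this direction, for 10.9% of all genes. The fitted difference was -0.47 (SE 0.262) and not called (adjusted p = 0.137). With the gel RAPSN averaged 85.7 ± 29.8 CPM in the long term and 115 ± 20.8 CPM in the short term (SD, n = 5 each), and the fitted difference was -0.02 (SE 0.262, adjusted p = 0.959), or -0.32 without gel long-term library 1. These values depend on scaling. With library totals in place of TMM factors the median of all genes shifted to -0.45 after repair and -0.43 with the gel, and RAPSN was then called lower after repair (-0.78, adjusted p = 0.00186).

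The collagen tail gene COLQ did not pass the threshold in either comparison between terms. It had 62.4, 20.2, 16.8, 18.8 and 43.7 CPM in gel muscles of the long term, against 41.3, 14.7, 14.8, 84.5 and 43.0 CPM in the short term (difference 0.09, SE 0.451, adjusted p = 0.881, or -0.41 without gel long-term library 1). After repair it had 14.2, 32.4, 42.5, 29.4 and 19.1 CPM in the long term, against 74.1, 35.8, 28.2, 10.4 and 30.0 CPM in the short term (difference 0.08, SE 0.451, adjusted p = 0.898). The groups overlapped widely in both, and both differences had the opposite sign without TMM factors. Uninjured libraries fell apart in COLQ and CHRNG together. Libraries 1, 3, 4, 6 and 8 had 40.2 to 62.8 CPM of COLQ and 3.42 to 11.8 CPM of CHRNG, and the other 5 had 20.3 to 25.2 CPM of COLQ and 0.821 to 1.33 CPM of CHRNG. The division was not particular to these genes. The summed level of 7 developmental sarcomere genes, such as MYH3, was 6719 to 9895 CPM in the former libraries and 1845 to 3096 CPM in the latter. This division was seen after the values were known and was not tested.

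**Figure D3:**
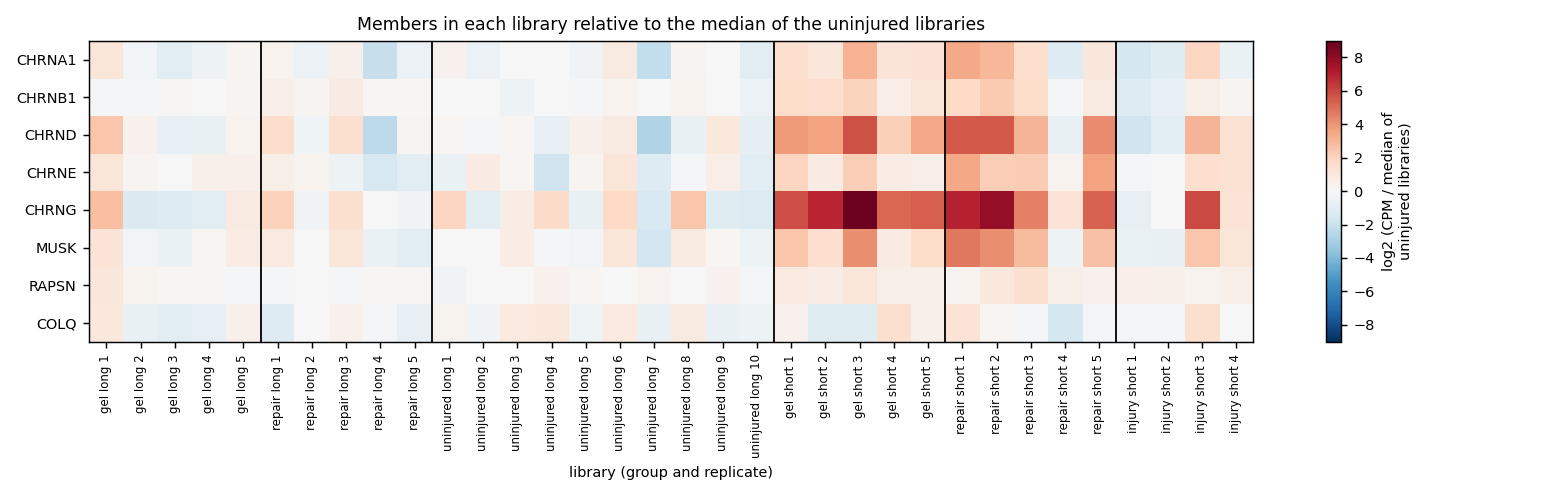
Level of the 8 genes in each of the 34 libraries as log2 of the CPM over the median CPM of the uninjured libraries, with red above and blue below that median. CHRNG, CHRND and CHRNA1 lie above the uninjured range in the short-term gel and repair libraries other than repair library 4, and in injury library 3. In the same libraries MUSK does so except in gel library 4, and CHRNE except in gel libraries 2, 4 and 5. In injury library 4, CHRND (18.01 CPM) and CHRNE (13.27 CPM) also lie above the uninjured range.

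Within the short term, repair muscles were compared with injury-only muscles. The labels give no days, so whether both were taken at the same time after injury is not known. CHRND was at 324, 330, 57.9, 4.56 and 133 CPM after repair, against 2.02, 3.65, 58.5 and 18.01 CPM after injury only. CHRNG was at 263, 508, 50.3, 4.95 and 84.4 CPM after repair, against 1.30, 2.20, 131 and 5.00 CPM after injury only. In both genes repair library 4 lay below injury library 4, and injury library 3 lay within the range of the repair group. The fitted differences were 1.69 for CHRNA1, 1.25 for CHRNB1, 2.85 for CHRND, 1.47 for CHRNE, 2.39 for CHRNG and 2.10 for MUSK, with adjusted p-values of 0.322 to 0.377. RAPSN had a difference of -0.12, which was 0.32 without TMM factors, where the median of all genes shifted to 0.39, and COLQ one of -0.69. The edgeR test called 0 of the 8 genes and 0% of all genes. At an unadjusted p under 0.05 the count was 5 of 8 genes, all higher after repair, against 14.6% of all genes in either direction. DESeq2 called 1 of the 8 higher, CHRNB1, where it called 1.49% of all genes higher.

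Without repair library 4 and injury library 3, the 2 libraries that earlier results had already set apart, 6 of the 8 genes were called higher after repair, where 17% of all genes were. The differences were then 2.73 for CHRNA1 (adjusted p = 0.00714), 1.41 for CHRNB1, 4.00 for CHRND, 1.67 for CHRNE, 5.53 for CHRNG (adjusted p = 0.00620) and 2.89 for MUSK. limma voom with sample quality weights, which keeps all libraries and gives outlying ones less weight, called the same 6 genes higher, where it called 18% of all genes higher. Leaving out injury library 3 alone gave a CHRNG difference of 5.22 and a RAPSN difference of -0.38, with 0 of the 8 genes called. Without repair library 2 the CHRNG difference was 1.47. Since these libraries were set apart with their values known, the counts without them are descriptions.

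Other cell types moved with these libraries. The macrophage marker sum, over 9 of 12 listed markers, was 12.7 CPM in repair library 4, against 111 to 423 CPM in the other 4 repair libraries. It was 153 CPM in injury library 3, against 12.04 to 28.5 CPM in the other injury libraries. The fibroblast marker sum, over 9 of 9, was 1035 CPM in repair library 4, against 13010 to 116300 CPM in the rest of its group, and 13450 CPM in injury library 3, against 975 to 2040 CPM. The muscle fibre sum ran the other way, with 203100 CPM in repair library 4, against 52110 to 130900 CPM in the rest, and 65780 CPM in injury library 3, against 175900 to 211500 CPM. Among the markers of these 3 lists, only MARCO and MSR1 were at 0 in any short-term library. The Schwann cell sum, over 12 of 12, was 77.8 CPM in repair library 4, against 73.8 to 121 CPM in the rest of its group, and 361 CPM in injury library 3, against 50.1 to 113 CPM. The adipocyte sum, over 6 of 7, was 417.6 CPM in repair library 4, against 565 to 1554 CPM, and 4299 CPM in injury library 3, against 643 to 1730 CPM. In both of these sums injury library 3 lay above every repair library. The satellite cell sum, over 6 of 7, was 23.2 CPM in repair library 4, against 86.2 to 194 CPM, and 129.8 CPM in injury library 3, against 30.9 to 74.0 CPM. The part of these cell types in the result was not tested.

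**Figure D4:**
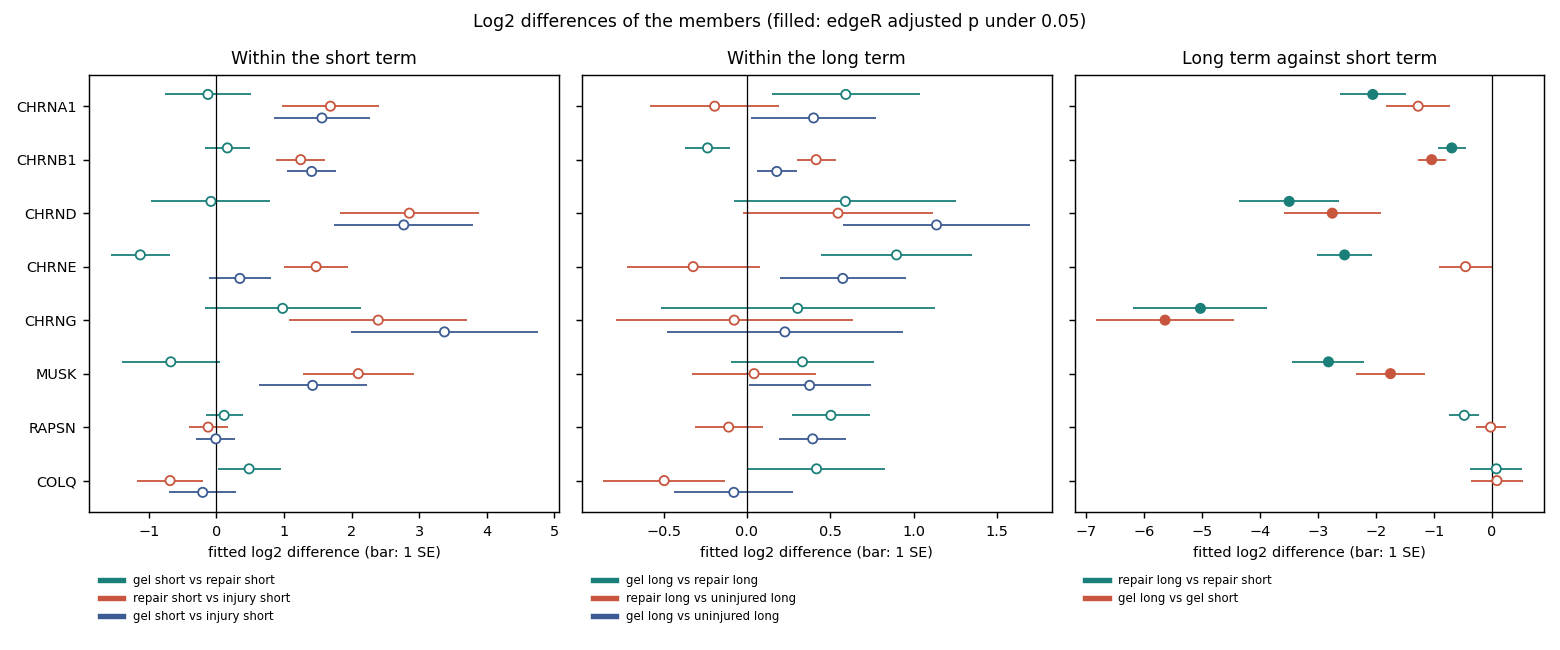
Fitted log2 difference of each of the 8 genes in the 8 comparisons, in 3 panels (within the short term, within the long term, long term against short term), with bars of 1 SE and filled points where the adjusted p was under 0.05. All filled points lie in the panel of long term against short term, on the lower side.

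Gel against injury-only muscles shared the injury libraries with the comparison above. CHRNB1 was at 122, 112, 159, 60.7 and 82.7 CPM with the gel, against 17.9, 23.6, 58.3 and 47.0 CPM after injury only. All gel libraries lay above all injury libraries, as was so for 3.12% of all genes tested. The difference was 1.41 (SE 0.368), with an adjusted p of 0.145. CHRNG had a difference of 3.37 (SE 1.38, adjusted p = 0.227), CHRND of 2.77, CHRNA1 of 1.56 and MUSK of 1.42, and CHRNE of 0.35. Without gel library 3 MUSK had a difference of 0.62 and CHRNE one of 0.0809. Again edgeR called 0 of the 8 and 0% of all genes, and at an unadjusted p under 0.05 the count was 4 of 8 (CHRNA1, CHRNB1, CHRND and CHRNG, all higher), against 18.4% of all genes. DESeq2 called CHRNB1 and CHRND higher, 2 of 8, where it called 3.64% of all genes higher.

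Without injury library 3 alone, CHRNG was called, with a difference of 6.20, where 0.768% of all genes were called higher. Without injury library 3 and repair library 4 together, 4 of the 8 genes were called higher with the gel than after injury only, where 8.42% of all genes were. These were CHRNA1 (2.33), CHRNB1 (1.39), CHRND (3.61) and CHRNG (6.20, adjusted p = 0.00872). Both libraries were set apart with their values in these genes known, so the calls without them are descriptions here too. The limma voom fit with sample quality weights called the same 4 genes, where it called 14.3% of all genes higher. The macrophage sum was 60.6 to 332 CPM in the gel libraries and 12.04 to 153 CPM in the injury libraries. The fibroblast sum was 4244 to 13720 CPM with the gel and 975 to 13450 CPM after injury only. The developmental sarcomere sum, over 7 of 9 listed genes such as MYH3 and MYL4, was 3400 to 23200 CPM with the gel and 1944 to 9450 CPM after injury only. Their part in the result was not tested.

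Between gel and repair muscles of the short term, 0 of these genes passed the threshold, with repair library 4 kept as labelled. CHRNE had the smallest p, with 19.0, 8.40, 23.5, 8.07 and 7.67 CPM in gel muscles, against 56.5, 23.5, 24.4, 6.19 and 62.5 CPM in repair muscles. Repair library 4 lay below all 5 gel libraries, and the other 4 repair libraries lay above the highest gel library. The difference was -1.13 (SE 0.438, unadjusted p = 0.0222, adjusted p = 0.429). CHRNG had a difference of 0.98 (SE 1.16) and the other 6 genes differences of -0.68 (MUSK) to 0.48 (COLQ). The CHRNG difference was 0.00256 without gel library 3 and 1.89 without repair library 2. That of MUSK was -1.44 without gel library 3 and -0.24 without repair library 1. That of COLQ was 0.30 without repair library 4 and -0.0087 without gel library 4. None of the 8 genes was called by edgeR, by DESeq2 or by limma voom with sample quality weights. edgeR called 0% of all genes, and at an unadjusted p under 0.05 the count was 1 of 8, against 10.4% of all genes.

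In the long term the CPM of each operated group overlapped that of the uninjured group in all 8 genes. CHRNB1 came nearest to the threshold, with 59.98, 48.1, 67.1, 45.6 and 45.8 CPM after repair, against 27.2 to 49.8 CPM (median 39.6) in uninjured muscles. All 5 repair libraries lay above the uninjured median, and 2 lay above the whole uninjured range. The difference was 0.42 (SE 0.118, unadjusted p = 0.00193, adjusted p = 0.105). edgeR called 0 of the 8 genes and 1.01% of all genes, and at an unadjusted p under 0.05 the count was 1 of 8, against 11.7% of all genes. DESeq2 called CHRNB1 higher (adjusted p = 0.0429), where it called 1.74% of all genes higher. With the animal codes as a block CHRNB1 had a difference of 0.36 (adjusted p = 0.687), and the number of genes called over all genes was 0, against 117 without the block.

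By their animal codes, the 10 operated muscles of the long term each have an uninjured partner. In these pairs CHRNB1 was higher in the repair muscle in 5 of 5, with log2 ratios of CPM of 0.23 to 0.89 (median 0.26), and in the gel muscle in 2 of 5 (-0.26 to 0.77). CHRNG was higher in the repair muscle in 5 of 5 pairs (0.14 to 2.15, median 0.80) and in the gel muscle in 2 of 5 (-3.48 to 2.08, median -2.96). CHRNE went the other way, higher in 4 of 5 gel muscles (-1.11 to 2.00) and in 1 of 5 repair muscles (-1.56 to 1.13). These counts were noticed among 16 sets of pairs and carry no test. For CHRNG, the uninjured partners of the gel muscles had 3.42, 6.98, 7.32, 11.8 and 0.896 CPM. Those of the repair muscles had 8.31, 1.07, 1.33, 0.821 and 0.990 CPM, most of them near the lowest levels found. The CHRNG ratios thus follow the partners as well as the operated muscles.

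**Figure D5:**
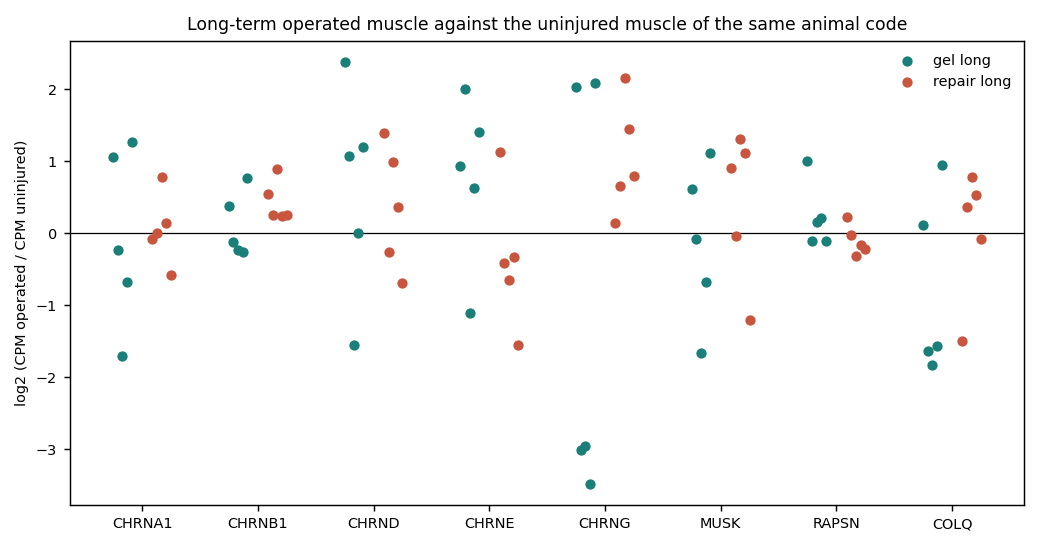
Log2 ratio of CPM in the operated over the uninjured muscle of the same animal code, for the 8 genes, with 1 point per pair (5 gel and 5 repair pairs). All 5 repair points of CHRNB1 and of CHRNG lie above 0, and the gel points of CHRNG run from -3.48 to 2.08.

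Gel long-term muscles were set against uninjured ones with 0 of the 8 genes called by edgeR, DESeq2 or limma voom, and edgeR called 0.00862% of all genes. At an unadjusted p under 0.05 the count was 0 of 8, against 13.8% of all genes. CHRND had a difference of 1.14 (SE 0.563, adjusted p = 0.375), and without gel library 1 it was -0.06. CHRNA1 (0.40), CHRNG (0.23) and MUSK (0.38) also fell below 0 without that library. These fits ignored the animal codes. With the codes as a block 0 of the 8 genes were called, and the CHRNG difference changed sign. In the pairs by code CHRNG was lower in the gel muscle in 3 of 5 (median log2 ratio -2.96). Gel against repair in the long term gave 0 of 8 genes by the same 3 tools, with 0% of all genes called by edgeR. At an unadjusted p under 0.05 the count was 1 of 8, RAPSN, against 14.2% of all genes. RAPSN was at 137, 82.8, 74.5, 75.2 and 59.3 CPM with the gel, against 63.0, 65.2, 62.1, 76.0 and 74.5 CPM after repair (difference 0.50, SE 0.235, adjusted p = 0.347). The groups overlapped, and gel library 1 held the highest value. Without that library the difference was 0.17.

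Across the 34 libraries CHRNA1 varied together with CHRND, CHRNG and MUSK. Over deviations of log2 CPM from the group means, CHRNA1 correlated with CHRND (Pearson r = 0.903, Spearman rho = 0.842) and with MUSK (r = 0.897, rho = 0.863). It also correlated with CHRNG (r = 0.832, rho = 0.802). Each had an unadjusted permutation p of 1e-05, the smallest that 100000 permutations can give, and over the 28 relations computed the adjusted p was 4.00e-05 for r and 4.67e-05 for rho. Without the 2 libraries farthest from the CHRNA1 median, r was 0.864, 0.857 and 0.807 for CHRND, MUSK and CHRNG. Within the long term (n = 20) the 3 values of r were 0.906, 0.853 and 0.715, and within the short term (n = 14) they were 0.90, 0.938 and 0.923. All values come from the same libraries and share their depth and scaling. The permutations exchanged libraries freely over groups of unequal spread, and muscles that share an animal code were treated as independent. The permutation p-values here and in the next paragraph are therefore descriptions.

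CHRNE and CHRNG, the adult and fetal partners, were not correlated past the threshold (r = 0.308, permutation p = 0.0765, adjusted p = 0.119, and rho = 0.334, permutation p = 0.0535, adjusted p = 0.0788). Without the 2 farthest libraries r was 0.292, and it was 0.124 in the long and 0.523 in the short term. RAPSN and CHRNA1 were not correlated past the threshold either (r = -0.276, permutation p = 0.113, adjusted p = 0.151, and rho = -0.309, permutation p = 0.0746, adjusted p = 0.0995, with r = -0.166 without the 2 farthest libraries, -0.0235 in the long and -0.513 in the short term). CHRNG and COLQ had an r of 0.707 in the long term and 0.0558 in the short term, with 0.368 over both (rho = 0.442, permutation p = 0.0316 and 0.00922, adjusted p = 0.0590 and 0.0184, and r = 0.248 without the 2 farthest libraries).

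By the same measure, over 11670 genes with a symbol, the genes most like CHRNG were CBS (r = 0.941), MYL4 (r = 0.930) and EEF1A1 (r = 0.922). MYL4 encodes a myosin light chain of embryonic muscle and atria, CBS an enzyme of homocysteine metabolism and EEF1A1 a translation elongation factor. Those most like CHRNA1 were PDE2A (0.867), a cyclic nucleotide phosphodiesterase, MYOM3 (0.824), an M-band protein, and KIF24 (0.816), a kinesin. LIMD2 (0.864), SERPINB1 (0.825) and TGIF1 (0.821) were most like MUSK, and ESPL1 (0.724), TRIL (0.722) and SLC38A5 (0.708) most like CHRNE. These are descriptions over 34 libraries.

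Other genes of the junction did not share one direction. Of 35 listed, 31 were in the files and 28 were tested between terms. In repair muscles of the long against the short term 6 were called higher and 5 lower (median difference -0.16, against -0.11 over all genes), and in gel muscles 4 higher and 7 lower (median -0.13, against -0.09). The shares over all genes were 18.2% higher and 27.9% lower after repair, and 21.8% higher and 26.5% lower with the gel. The counts of this list were about what these shares give. LAMB2, the laminin beta 2 chain of the synaptic basal lamina, was lower after repair (-0.70, adjusted p = 0.00288) and with the gel (-1.04, adjusted p = 4.44e-05). SCN4A, the adult muscle sodium channel, was higher in the long term after repair (0.98, adjusted p = 0.0255) and with the gel (1.87, adjusted p = 0.000136). CRKL, an adaptor recruited by DOK7, was also higher in both (0.72 and 1.32), as was DTNA, a dystrobrevin of the postsynaptic cytoskeleton (1.18 and 0.84). The cortical actin regulator CTTN was lower in both (-0.91 and -0.54). NID2, a nidogen of the basal lamina, was lower with the gel (-1.34, adjusted p = 0.000532), and its difference after repair was -0.35 (adjusted p = 0.333). NRG1, the neuregulin ligand of the ErbB receptors, was called lower after repair, with 0 to 0.0783 CPM in the long term, against 0 to 41.4 CPM in the short term, and its level was too low in the long term for a fold. Within each term, edgeR called 0 of these genes.

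Genes known in rodents to respond to denervation formed another list. Of 18 listed, 17 were in the files and 16 were tested between terms, of which 1 was called higher and 8 lower after repair (median -0.81, against -0.11 over all genes), and 3 higher and 8 lower with the gel (median -0.85, against -0.09). Over all genes 18.2% were called higher and 27.9% lower after repair, and 21.8% higher and 26.5% lower with the gel. RUNX1, a transcription factor, was lower after repair (-3.87, adjusted p = 3.19e-05) and with the gel (-3.20, adjusted p = 0.000241). GADD45A (-1.87 and -1.74) and NCAM1 (-2.28 and -2.24), the neural cell adhesion molecule, were lower in both. The myogenic factor MYOG, which activates receptor subunit genes, was lower after repair (-1.30, adjusted p = 0.000127) and with the gel (-0.84, adjusted p = 0.00624). CDKN1A, an inhibitor of the cell cycle, was lower in both (-2.42 and -2.80). Those called higher with the gel were HDAC4 (0.68), HDAC5 (0.92) and the ubiquitin ligase FBXO32 (1.53). Within each term, edgeR called 0 of the list.

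Markers of other cells also differed between terms. Of 8 macrophage markers tested 7 were called lower in the long term after repair and 8 with the gel, and of 9 fibroblast markers 8 and 8. Their sums in gel muscles were 10.1 to 17.8 CPM in the long term, against 60.6 to 332 CPM in the short term, for macrophages, and 645 to 1215 CPM, against 4244 to 13720 CPM, for fibroblasts. In repair muscles they were 10.6 to 60.9 CPM in the long term, against 12.7 to 423 CPM in the short term, and 868 to 3185 CPM, against 1035 to 116300 CPM. Of 11 Schwann cell markers tested 6 were called higher and 1 lower after repair, and 6 higher and 0 lower with the gel. The shares of all genes called were those given for the lists above. MARCO, MSR1 and AIF1 of the macrophage list were at 0 in some long-term libraries, and 0 of the fibroblast markers were at 0 in any library. The part of these cells in the differences between terms was not tested.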

How the data were processed

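Gene counts of 34 supraspinatus libraries were used, with 1 file per library. The authors deposited raw counts of reads per gene, unnormalized whole numbers. The submitters' processing notes name STAR, edgeR and the build OryCun2.0. Not given in the sources used here are versions, the counter, the annotation and whether strand was used. Each file held 18210 entries. The 26 entries whose names had become dates (at most 0.163% of a library) were left out, and 15 entries of 7 repeated symbols were summed. Among 91 within-group pairs of libraries 0 were identical, and chi-square per degree of freedom was at least 9.86.

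Counts were fitted in R 4.3.3 with edgeR 4.0.16 (TMM, filtering by expression at a minimum count of 10, robust quasi-likelihood test): 14 short-term libraries (13526 genes), 20 long-term libraries (11605 genes), and all 34 for comparisons between terms (12935 genes). All 8 genes present passed every filter. Alternatives used DESeq2 1.42.0, limma 3.58.1, other scaling, filters, samples and blocks, and each library left out. The scripts were tested on simulated data. Replicates and groups came from the titles. Numbers shared between titles were not taken as pairs. Correlations of deviations were over 0.1 in 0 of 5, 2 of 4, 2 of 5 and 1 of 4 of their pairs, with 0.412 as the highest. The animal codes come from the files' names and were used as pairs, with a correlation over 0.1 in 6 of 10 pairs (-0.19 to 0.322). This measure does not decide between the pairings. Likeness used log2 CPM with a prior count of 2.

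The genes, lists and alternatives were chosen with earlier results of these data known. Genes outside the 10 were named by rule, with up to 4 genes past the threshold per list by smallest p and the 3 genes most like each of 4 genes. NCAM1 and MYOG were also given in the comparison in which the rule did not name them, as were DTNA, CTTN, CRKL, SCN4A and CDKN1A, and HDAC4, HDAC5 and FBXO32 were named after their values were seen. One gene that the rule named is not reported here. No sequences or coordinates are printed.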

Additional observations from a re-analysis of the deposited data

Results flagged for a closer look

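Within 48 sets of group and gene, 9 held a library whose gap to the nearest other library passed Dixon's 95% critical value for the group's range. The criterion was applied to CPM without logs. Its chance rate of about 1 in 20 holds for independent sets of normally distributed values. These CPM were skewed and several of the genes varied together, so the 9 cannot be set against that rate. Of these 4 were gel short-term library 3, with 147 CPM of CHRNA1, 376 CPM of CHRND, 987 CPM of CHRNG and 36.6 CPM of MUSK. Injury short-term library 3 was flagged with 62.2 CPM of CHRNA1, 131 CPM of CHRNG and 86.7 CPM of COLQ. Gel long-term library 1 was flagged with 40.5 CPM of CHRND and 14 CPM of CHRNG. The 3 libraries account for all 9. Repair short-term library 4, low in the subunit genes, did not pass this criterion.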

How the results depend on the processing

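Over the 8 genes and 9 tests, leaving out single libraries gave 864 values, of which 795 kept direction and side of the threshold, 64 changed sign, 2 lost a call and 3 gained 1. The other alternatives gave 592, with 525 kept, 32 changed in sign, 3 calls lost and 32 gained. The calls lost were CHRNB1 after repair between terms (adjusted p = 0.0831 with only the groups compared and 0.0753 with title numbers as a block) and MUSK with the gel between terms (adjusted p = 0.0571 with that block). CHRNA1 with the gel between terms was gained by DESeq2 (adjusted p = 0.0478), limma voom, library totals without TMM, only the groups compared and the title block. Fitting only the groups compared reversed 0 values. Without gel long-term library 1 the differences of CHRND, CHRNG and MUSK changed sign for gel against repair in the long term and for gel against uninjured. Those of CHRNA1 went to 0.07 and -0.13 and those of RAPSN to 0.17 and 0.06. That of COLQ changed sign for gel against repair. The lowest CHRNG counts limit the long-term values of that gene.

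Genes called over all genes tested moved as follows. DESeq2 called 127 (gel against repair), 242 (repair against injury) and 788 (gel against injury) in the short term, 7 (gel against repair), 234 (repair against uninjured) and 15 (gel against uninjured) in the long term, and 28 in the test of the 2 term differences, against 0, 0, 0, 0, 117, 1 and 2 in the edgeR fits. limma voom with quality weights called 3, 4703 and 3795 in the short term, 27 for repair against uninjured and 5 for the term differences. All libraries in one fit gave 93, 626 and 1085 in the short term and 1, 9 and 0 in the long term. Only the groups compared gave 7 for gel against injury, 63 for repair against uninjured and 1 for the term differences. Without injury library 3 and repair library 4 the short-term counts were 13, 4556 and 2577. Library totals without TMM, chosen after seeing the data, gave 0 for gel against uninjured and 1 for the term differences. Leaving out 1 library gave 0 to 2, 0 to 34 and 0 to 382 in the short term, 0 for gel against repair, 0 to 319 for repair against uninjured and 0 to 1 for gel against uninjured in the long term, and 2 to 9 for the term differences. The causes were not tested.

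The replicate blocks gave these values. Animal codes as a block gave 0 genes for repair against uninjured and 0 for gel against uninjured, and as a random effect 0 for repair against uninjured. Title numbers, which the labels do not name as pairs, were added as a block for the comparisons between terms after seeing the data. They gave 0 genes for the term differences. With the animal block CHRNG turned to 0.92 for repair against uninjured and -0.93 for gel against uninjured, and to 0.30 and -0.38 as a random effect. With the title block RAPSN turned to 0.0549 for gel against injury and 0.0444 for gel between terms, CHRNG to -0.33 for gel against repair in the long term, and COLQ to -0.20 for the term differences. No block changed another call.

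Other values that changed sign were not called in either setting. With limma voom these were CHRNB1 for gel against repair in the short term (-0.218), CHRNG (-1.33) and COLQ (-0.21) for gel against repair in the long term, CHRND (-0.0692), CHRNG (0.38) and MUSK (-0.12) for repair against uninjured, CHRNA1 (-0.0731), CHRNG (-0.95) and MUSK (-0.0847) for gel against uninjured, COLQ between terms after repair (-0.0074) and with the gel (-0.43), and CHRNB1 (0.0154) and COLQ (-0.42) for the term differences. Without TMM they were CHRNB1 (-0.0816) and RAPSN (-0.0270) for gel against repair in the short term, RAPSN for repair against injury (0.32) and gel against injury (0.29), CHRNG for gel against repair (-0.0162) and gel against uninjured (-0.0646) in the long term, and COLQ between terms after repair (-0.38) and with the gel (-0.29). Without injury library 3 and repair library 4 CHRNB1 for gel against repair in the short term was -0.0142. RAPSN with the gel between terms was 0.0216 with DESeq2 and 0.0216 with its size factors.

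With 1 library left out, signs changed within these ranges. For gel against repair in the short term they were -0.60 to 0.31 (CHRNA1), -0.0171 to 0.44 (CHRNB1), -0.79 to 0.35 (CHRND), -0.0477 to 0.31 (RAPSN) and -0.0087 to 0.81 (COLQ). RAPSN ranged over -0.38 to 0.0136 for repair against injury and -0.28 to 0.13 for gel against injury. For gel against repair in the long term they were -0.60 to 0.92 (CHRND), -1.20 to 0.77 (CHRNG), -0.0879 to 0.60 (MUSK) and -0.0897 to 0.59 (COLQ). For repair against uninjured they were -0.41 to 0.0382 (CHRNA1), -0.53 to 0.20 (CHRNG) and -0.22 to 0.22 (MUSK). For gel against uninjured they were -0.13 to 0.58 (CHRNA1), -0.0607 to 1.38 (CHRND), -1.30 to 0.52 (CHRNG), -0.0525 to 0.55 (MUSK) and -0.60 to 0.0917 (COLQ). Between terms they were -0.0950 to 0.42 for COLQ after repair, and -0.41 to 0.57 for COLQ and -0.32 to 0.12 for RAPSN with the gel. For the term differences they were -0.48 to 1.46 (CHRND), -2.15 to 0.37 (CHRNG) and -0.55 to 0.49 (COLQ). The cause of these changes was not tested.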
